A study of Mus musculus with 6 samples.

Results

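The canonical Wnt pathway ends in the nucleus, where β-catenin binds the Lef/Tcf factors and turns on target genes, several of which encode proteins that dampen the pathway again. Described here are the RNA levels of 10 such genes in the embryonic mouse maxillary process. They comprise the whole Lef/Tcf family (Lef1, Tcf7, Tcf7l1 and Tcf7l2), the feedback genes Axin2, Nkd1, Nkd2, Apcdd1 and Notum, and the target gene Sp5. The genes were picked by symbol, and are 10 of the 53801 genes listed in the files. They were picked with their difference between the 2 genotypes already known, so the differences below are descriptions, with no test.

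The study overexpressed the homeobox factor Dlx2 in the neural crest lineage and sequenced RNA from maxillary processes dissected at embryonic day 12.5 (E12.5). There were 3 samples of wild-type (WT) C57BL/6 embryos and 3 samples of Wnt1cre; Rosa26Dlx2/- embryos of the same strain (Dlx2OE). In Dlx2OE, Cre expressed under Wnt1 control removes a stop cassette in front of a 3xFlag-tagged Dlx2 copy, which the CAG promoter drives from a single knock-in at the Rosa26 locus. The labels name no agent or other allele in either group and call the WT embryos only wild type, so an effect of the Cre driver and one of the Dlx2 transgene cannot be told apart. The source of the RNA is given as 6 littermates in the study's methods and as 7 in the labels, so samples may share a litter and a sample may pool embryos. The p-values below measure only the spread between these samples.

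The Lef/Tcf factors are DNA-binding proteins with an HMG box that recognize the same core motif. Without β-catenin they recruit Tle corepressors and hold target genes down, and with it they activate them. Tcf7l1 is known mainly as a repressor and Lef1 mainly as an activator, whereas Tcf7 and Tcf7l2 can do either. Axin2 is part of the complex that destroys β-catenin, Nkd1 and Nkd2 act on Dishevelled, and Apcdd1 and Notum act outside the cell, Apcdd1 at the membrane and Notum as an enzyme that removes the lipid of Wnt ligands. In the developing face, Wnt ligands from the surface epithelium act on the neural crest-derived mesenchyme beneath it and on the epithelium itself.

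How alike the 4 factors are is shown by a 90-base coding stretch of the HMG box, which lies in 1 exon of each gene. It was read from the transcripts of the GENCODE M21 annotation of GRCm38 (mm10). Capitals mark the 63 bases (70%) that are identical in all 4 genes, and all sequences run 5′ to 3′ on the coding strand. The Lef1 stretch is at chr3:131194689-131194778 (forward strand), Tcf7 at chr11:52256958-52257047 (reverse), Tcf7l1 at chr6:72631224-72631313 (reverse) and Tcf7l2 at chr19:55918946-55919035 (forward).
Lef1: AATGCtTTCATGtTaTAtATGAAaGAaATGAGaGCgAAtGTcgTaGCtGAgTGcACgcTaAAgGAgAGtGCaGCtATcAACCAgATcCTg
Tcf7: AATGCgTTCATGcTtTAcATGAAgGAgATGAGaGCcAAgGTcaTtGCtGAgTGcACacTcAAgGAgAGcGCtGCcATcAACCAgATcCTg
Tcf7l1: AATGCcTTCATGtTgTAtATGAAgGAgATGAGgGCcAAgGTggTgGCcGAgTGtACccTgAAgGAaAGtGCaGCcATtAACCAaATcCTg
Tcf7l2: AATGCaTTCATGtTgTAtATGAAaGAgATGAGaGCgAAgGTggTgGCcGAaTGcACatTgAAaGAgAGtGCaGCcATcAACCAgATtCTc
Against Lef1, 83.3% of these bases were identical in Tcf7 and in Tcf7l2 and 81.1% in Tcf7l1. Over the whole exon sequence, the longest run of identical bases shared by any pair of the 4 factors was 14 to 23 bases, and Nkd1 and Nkd2 shared at most 20.

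The 250 bases upstream of the transcript start were taken from RefSeq (GRCm38.p6) for 8 of the 10 genes, in 13 windows. Apcdd1 and Notum have no window among these 13, so motifs upstream of them are not described. Each window was searched on both strands for the Tcf/Lef motif CTTTGAT, its variants CTTTGAA and CTTTGTT, and for the homeodomain motifs TAATTA and TAATTG. Among 32851 such windows of all genes, 12% held a Tcf/Lef motif (3.21% CTTTGAT, 4.46% CTTTGAA and 5.03% CTTTGTT) and 11.3% a homeodomain motif (4.84% TAATTA and 7.17% TAATTG). The windows of Sp5 and Axin2 and the first of 4 windows of Lef1 are shown, because both kinds of motif met in the first and neither in the other two, while all 3 genes had higher means in Dlx2OE. Capitals mark the motifs, and a motif on the opposite strand appears as its reverse complement. The windows lie at chr2:70474673-70474922, chr11:108920099-108920348 and chr3:131110047-131110296, all on the forward strand.
Sp5: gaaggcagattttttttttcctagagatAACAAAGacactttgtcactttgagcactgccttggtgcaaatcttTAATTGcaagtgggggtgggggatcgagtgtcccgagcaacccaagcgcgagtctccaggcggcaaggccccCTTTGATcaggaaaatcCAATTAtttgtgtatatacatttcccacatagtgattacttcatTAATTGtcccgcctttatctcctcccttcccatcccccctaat
Axin2: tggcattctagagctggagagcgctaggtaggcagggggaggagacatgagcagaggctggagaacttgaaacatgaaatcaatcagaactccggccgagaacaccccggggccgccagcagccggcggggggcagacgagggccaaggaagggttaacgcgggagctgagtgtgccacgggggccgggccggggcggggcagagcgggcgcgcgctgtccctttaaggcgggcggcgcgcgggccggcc
Lef1: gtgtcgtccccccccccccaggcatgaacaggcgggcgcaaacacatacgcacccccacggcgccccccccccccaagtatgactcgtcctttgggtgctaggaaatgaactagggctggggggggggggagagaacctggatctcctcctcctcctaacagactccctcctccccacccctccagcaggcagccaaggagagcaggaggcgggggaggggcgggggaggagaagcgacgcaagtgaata
Sp5 held CTTTGAT at 104 to 98 bases before the start, CTTTGTT on the opposite strand at 222 to 216, and 3 copies of TAATTG, with no overlap between matches. Apart from Sp5, the only motif in the 13 windows was 1 CTTTGTT upstream of a second start of Tcf7l2. A match describes letters only, and whether any factor binds there was not tested.

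Gene counts summed to 30332754 to 31308813 per WT sample and to 26155500 to 30570784 per Dlx2OE sample. Dlx2 had 41.0 ± 5.32 CPM (read counts scaled to library size by the TMM method) across WT and 124 ± 5.96 CPM across Dlx2OE (SD, n = 3 each), with no overlap. Dlx2OE sample 3 stood apart in the reads that fell on no gene, 14.7% against 5.03 to 7.81% in the other 5. After removal of genes with too few reads, 17514 genes were tested with edgeR. Levels are means with SDs, and log2 fold changes come from the edgeR fit. A gene was called where its adjusted p was under 0.05 and its log2 fold change beyond 1 in either direction, which 3.09% of genes met, 1.49% as higher and 1.6% as lower. The adjusted p alone was met by 2.99% as higher and 3.46% as lower, and an unadjusted p under 0.05 by 29.5% in either direction. DESeq2, run as an alternative, called 2.35% of its 19047 genes higher and 2.31% lower at the same thresholds. The median log2 fold change of all tested genes was 0.003.

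Of the 4 factors, Lef1 had a fitted level 9.35-fold higher in Dlx2OE than in WT, while Tcf7l1 and Tcf7l2 overlapped between the genotypes. Of the feedback genes, Apcdd1 was 5.68-fold, Nkd1 4.18-fold and Axin2 3.41-fold higher. Tcf7, Nkd2, Notum and Sp5 had higher values in every Dlx2OE sample but a wide spread among these samples or a small difference. All 10 genes had enough reads to be tested. In the same fit, 4 of the 10 were called higher in Dlx2OE (Lef1, Axin2, Nkd1 and Apcdd1) and 0 lower, with the fold threshold or without it. DESeq2 called 6 of the 10 higher, these 4 with Notum and Sp5, and 0 lower. In 8 of the 10, all Dlx2OE samples lay above all WT samples, a pattern that 16.7% of all tested genes had (17.3% had the opposite one, 34.1% either). Tcf7l1 and Tcf7l2 were the exceptions. The genes were chosen on this contrast, so nothing is read from these counts.

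**Figure D1:**
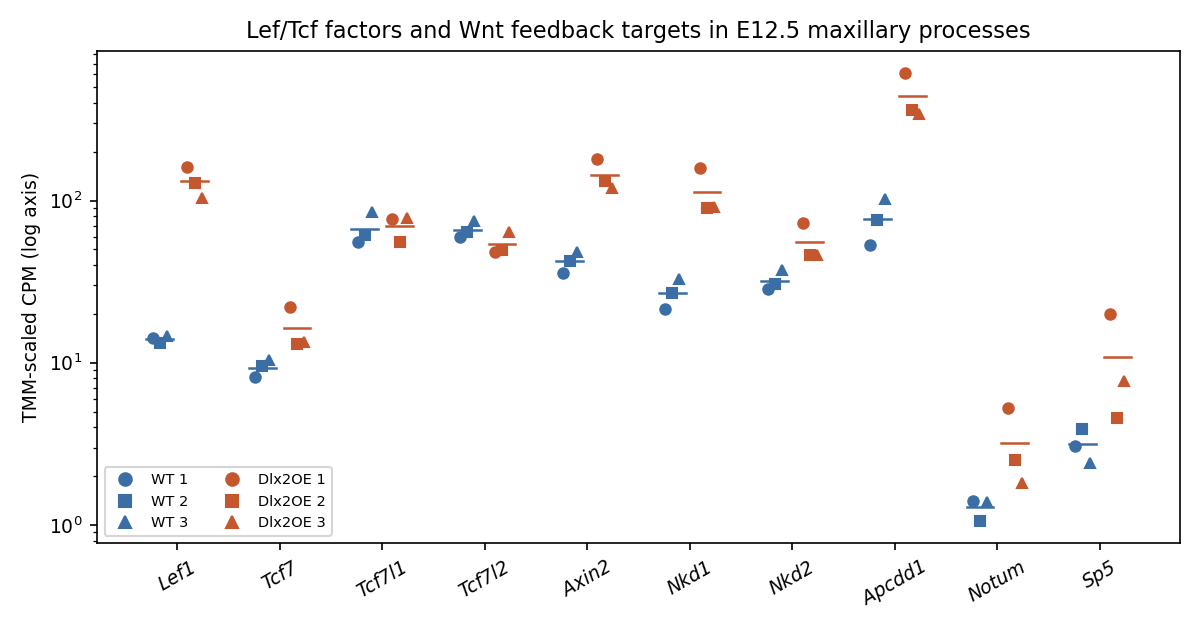
TMM-scaled CPM (log axis) of the 10 genes in each sample, WT in blue and Dlx2OE in orange, with the replicate given by the symbol and the mean of 3 samples by the line. The genotypes overlap for Tcf7l1 and Tcf7l2 only, and the Dlx2OE circle (sample 1) is the highest Dlx2OE point for the other 8 genes.

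Lef1 (ENSMUSG00000027985, chr3:131110471-131224356 of GRCm38, forward strand) was the family member that differed most. It gave 414, 398 and 456 reads across the WT samples, against 4756, 4060 and 2822 across Dlx2OE. The WT samples lay within a narrow band of 13.2 to 14.6 CPM, and the lowest Dlx2OE sample was 7.12 times the highest WT sample. Its mean was 14.0 ± 0.721 CPM across WT against 131 ± 28.2 CPM across Dlx2OE (SD, n = 3 each), a fitted log2 fold change of 3.22 ± 0.168 (standard error), or 9.35-fold. The exons at its start overlap the antisense gene Gm43352 over 1208 bp (13.7% of the Lef1 exon sequence). Gm43352 gave 1, 3 and 4 reads across the WT samples, against 19, 31 and 23 across Dlx2OE. If the counting did not use strand, its union mode assigned reads on the shared bases to neither gene, which would lower the count of Lef1. The strand setting is not given in the sources used here. The same limit holds for the other genes with antisense overlap.

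Tcf7 (ENSMUSG00000000782, chr11:52252371-52283014, reverse strand), which in other tissues is best known from T cells, gave 238, 286 and 324 reads across the WT samples, against 658, 412 and 366 across Dlx2OE. Its mean was 9.34 ± 1.14 CPM across WT against 16.3 ± 5.14 CPM across Dlx2OE (SD, n = 3 each), and its fitted log2 fold change was 0.80 ± 0.234 (standard error). The genotypes did not overlap, but Dlx2OE samples 2 and 3, at 13.1 and 13.5 CPM, were near the highest WT sample at 10.4 CPM. Tcf7 was not called. Without Dlx2OE sample 1 its log2 fold change was 0.50.

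Tcf7l1 (ENSMUSG00000055799, chr6:72626378-72789254, reverse strand) was the member with the least difference between the genotypes. It had 55.6, 61.1 and 85.1 CPM in the WT samples and 77.1, 55.2 and 77.6 CPM in the Dlx2OE samples. The ranges overlapped, and the fitted log2 fold change was 0.06 ± 0.192 (standard error). Tcf7l2 (ENSMUSG00000024985, chr19:55741820-55933654, forward strand) had 59.5, 63.7 and 74.4 CPM in WT and 48.5, 49.9 and 64.4 CPM in Dlx2OE. The values overlapped, with 2 of 3 Dlx2OE samples below every WT sample, and the fitted log2 fold change was -0.28 ± 0.140 (standard error). The deposited counts sum all transcripts of a gene. Of Tcf7l2, which has 22 annotated transcripts, and of Lef1 and Tcf7, isoforms with and without the β-catenin binding domain cannot be told apart.

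**Figure D2:**
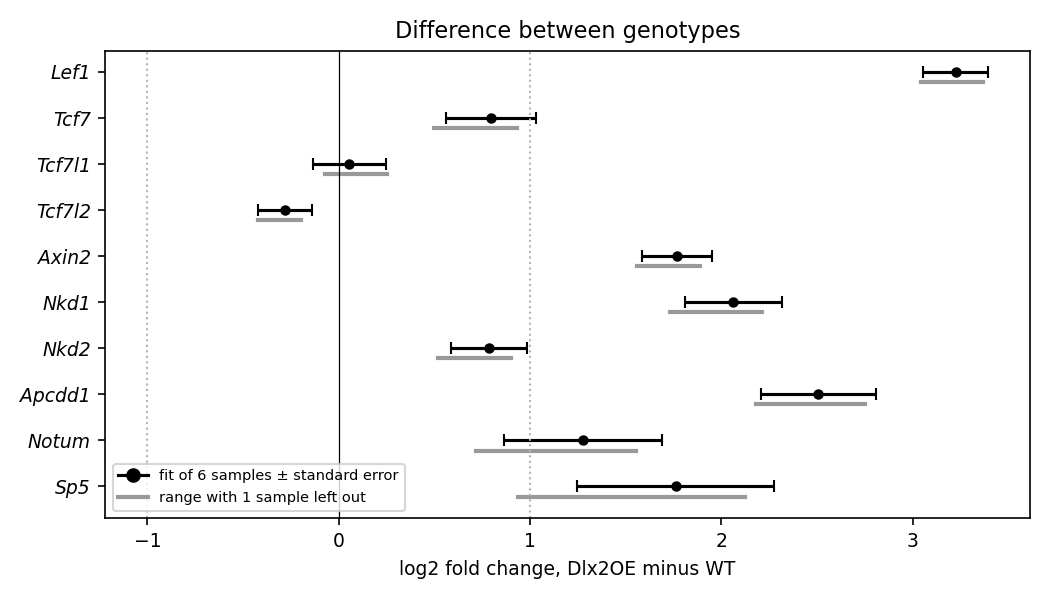
Log2 fold change of each gene (Dlx2OE minus WT, points) with its standard error (black bars) and the range when each of the 6 samples was left out in turn (grey bars). Lef1 keeps a narrow range from 3.05 to 3.37, whereas Sp5 ranges from 0.94 to 2.13 and Tcf7l1 lies on both sides of 0.

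Levels of different genes were compared per length, as RPKM over merged exons scaled by the same TMM factors. Merged exons span 3924 bp in Tcf7l1, 8775 bp in Tcf7l2, 8788 bp in Lef1 and 12884 bp in Apcdd1. Orders of genes per length hold for these lengths and were not examined with others. In WT, Tcf7l1 was the most abundant of the 4 factors and of all 10 genes, at 17.1 ± 4.0 RPKM (SD, n = 3). It was followed within the family by Tcf7l2 at 7.51 ± 0.875, Tcf7 at 3.56 ± 0.433 and Lef1 at 1.59 ± 0.0821 RPKM. No neighbours in that order had overlapping ranges in WT. In Dlx2OE, Tcf7l1 had 17.8 ± 3.25 RPKM and Lef1 14.9 ± 3.21, and the ranges of these 2 overlapped, while Tcf7 (6.20 ± 1.96) and Tcf7l2 (6.18 ± 1.00) also overlapped.

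Lef1 thus held 6.27, 5.38 and 4.65% of the summed RPKM of the 4 factors in the WT samples and 35.2, 37.3 and 26.9% in the Dlx2OE samples. The 2 ranges were far apart, and the means were 5.43 ± 0.814% and 33.1 ± 5.51% (SD, n = 3 each). The share of Tcf7l1 was 57.2 ± 2.97% in WT and 39.5 ± 4.79% in Dlx2OE, and that of Tcf7l2 25.4 ± 1.47% and 13.9 ± 3.01%. The share of Tcf7 was 12.0 ± 0.938% and 13.5 ± 2.44%, with overlap. The summed RPKM of the family was 29.8 ± 5.31 in WT and 45.2 ± 6.28 in Dlx2OE, and without Lef1 it was 28.2 ± 5.27 and 30.2 ± 4.78. The ratio of these means was 1.52 with Lef1 and 1.07 without it. With the length of the longest transcript in place of merged exons, the Lef1 share was 8.18% in WT and 44.7% in Dlx2OE.

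**Figure D3:**
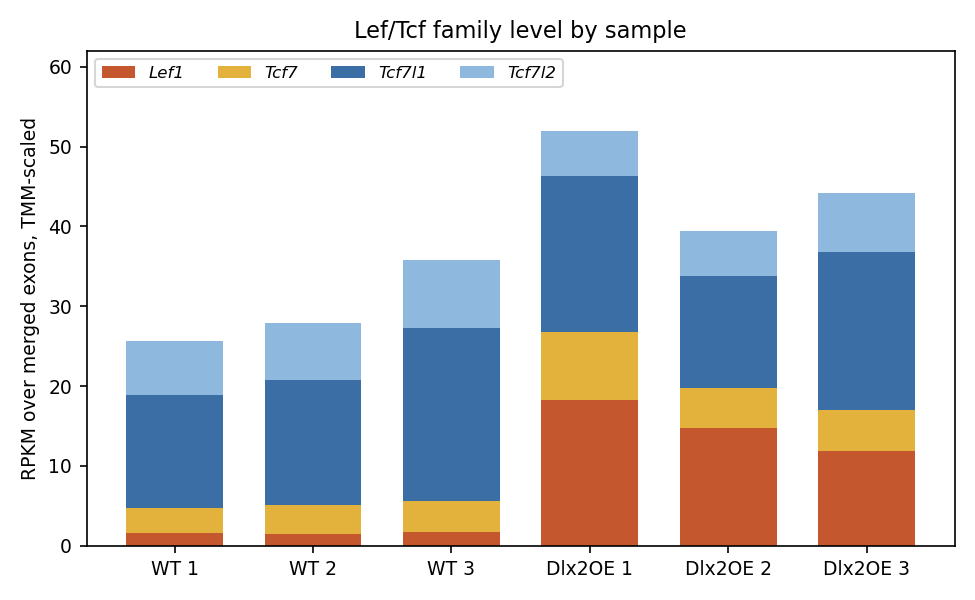
RPKM over merged exons (TMM-scaled) of Lef1, Tcf7, Tcf7l1 and Tcf7l2, stacked for each of the 6 samples, so that the bar height is the family's sum. The Lef1 segment is a thin strip in the WT samples (at most 1.66 RPKM) and 11.9 to 18.3 RPKM in the Dlx2OE samples, while the Tcf7l1 segment is similar in both.

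Among the feedback genes, Axin2 (ENSMUSG00000000142, chr11:108920349-108950783, forward strand), a scaffold of the β-catenin destruction complex and a common reporter of Wnt activity, gave 1048, 1282 and 1508 reads across the WT samples, against 5371, 4149 and 3217 across Dlx2OE. The lowest Dlx2OE sample was 2.46 times the highest WT sample. The mean was 42.2 ± 6.28 CPM across WT against 144 ± 32.9 CPM across Dlx2OE (SD, n = 3 each), a fitted log2 fold change of 1.77 ± 0.183 (standard error), or 3.41-fold. Antisense Gm11670 overlaps 209 bp (3.8%) of its exons and gave 5, 10 and 13 reads across the WT samples, against 30, 35 and 24 across Dlx2OE.

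Nkd1 and Nkd2, which bind Dishevelled and restrain Wnt signaling, had unlike values, and the difference between the 2 genes was not tested. Nkd1 (ENSMUSG00000031661, chr8:88521354-88594884, forward strand) gave 627, 813 and 1021 reads across the WT samples, against 4689, 2835 and 2469 across Dlx2OE. This was a mean of 27.0 ± 5.66 CPM against 113 ± 39.0 CPM (SD, n = 3 each), and a fitted log2 fold change of 2.06 ± 0.254 (standard error), or 4.18-fold. Nkd2 (ENSMUSG00000021567, chr13:73818534-73847631, reverse strand) had 28.5, 30.6 and 37.1 CPM in WT and 73.2, 46.4 and 46.1 CPM in Dlx2OE. Its fitted log2 fold change was 0.78 ± 0.199 (standard error), and it was not called, although the genotypes did not overlap. In WT the genes had like levels per length, 5.93 ± 1.24 RPKM for Nkd1 and 6.64 ± 0.930 RPKM for Nkd2, with overlapping ranges. In Dlx2OE they had 24.8 ± 8.56 and 11.5 ± 3.23 RPKM.

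Apcdd1 (ENSMUSG00000071847, chr18:62922231-62961179, forward strand), a membrane glycoprotein that inhibits Wnt signaling, gave 1561, 2291 and 3191 reads across the WT samples, against 18113, 11407 and 9295 across Dlx2OE. Of the 10 genes it had the widest relative spread among the WT samples, the highest being 1.92 times the lowest, and yet the lowest Dlx2OE sample was 3.35 times the highest WT sample. The mean was 77.2 ± 24.5 CPM across WT against 439 ± 149 CPM across Dlx2OE (SD, n = 3 each), a fitted log2 fold change of 2.51 ± 0.301 (standard error), or 5.68-fold. Per length, Apcdd1 stood amid the 10 genes in WT at 5.99 ± 1.90 RPKM, with a range overlapping those of its neighbours Nkd2 and Nkd1. In Dlx2OE it was the highest at 34.1 ± 11.6 RPKM, with a range overlapping that of Axin2 at 26.2 ± 5.98 RPKM.

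Notum (ENSMUSG00000042988, chr11:120653788-120661175, reverse strand), the secreted enzyme that inactivates Wnt ligands, was the lowest of the 10 genes per length, at 0.532 ± 0.0788 RPKM in WT and 1.33 ± 0.758 RPKM in Dlx2OE (SD, n = 3 each). It gave 41, 32 and 43 reads across the WT samples, against 156, 79 and 49 across Dlx2OE, so that Dlx2OE sample 3 lay just above the WT samples. Its fitted log2 fold change was 1.28 ± 0.413 (standard error), and 0.72 without Dlx2OE sample 1. Antisense genes cover 38.1% of its exon sequence, mainly Notumos with 708 bp, which gave 6, 5 and 7 reads across the WT samples, against 24, 18 and 7 across Dlx2OE.

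Sp5 (ENSMUSG00000075304, chr2:70474923-70477729, forward strand), a zinc finger factor and direct Wnt target, varied most among the Dlx2OE samples. It gave 90, 118 and 75 reads across the WT samples, against 596, 143 and 208 across Dlx2OE. The highest Dlx2OE sample was 4.42 times the lowest, and the lowest was 1.16 times the highest WT sample. The log2 fold change was 1.76 ± 0.516 (standard error), and 0.94 without Dlx2OE sample 1. Per length, Sp5 had 1.49 ± 0.360 RPKM in WT, with a range overlapping that of Lef1, and 5.13 ± 3.92 RPKM in Dlx2OE (SD, n = 3 each). Sp5 and Notum were called by DESeq2 but not by edgeR, while Axin2, with nearly the same log2 fold change as Sp5 but a smaller spread, was called by both.

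The highest sample of each genotype was the same for most of the 10 genes. The lowest Dlx2OE sample was not, being sample 3 for 5 genes, sample 2 for 4 and sample 1 for 1. WT sample 3 was the highest WT sample for 8 of the 10 genes, and Dlx2OE sample 1 was the highest Dlx2OE sample for 8 of the 10, all but Tcf7l1 and Tcf7l2. All 10 values of a sample come from 1 library, so these are not independent counts. The share of all genes with the same highest samples was not computed, so no trait of the 10 genes is read from it. The summed CPM of each of the 4 lists of other Wnt genes described below was also highest in WT sample 3 among the WT samples. Among the Dlx2OE samples it was highest in sample 1 for every list but the nuclear partners. Leaving out Dlx2OE sample 1 lowered the log2 fold change of each of the 8 genes, to 3.05 for Lef1, 1.56 for Axin2, 1.73 for Nkd1 and 2.18 for Apcdd1, and all 4 were still called. Without WT sample 2, Nkd1 (log2 fold change 2.05) and Apcdd1 (2.49) were not called.

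Marker lists of other cell types were summed in each sample. In bulk samples, fewer cells of a type and less RNA per cell cannot be told apart. The 10 markers of facial mesenchyme (Prrx1, Pdgfra, Msx1 and others) summed to 3721 to 3916 CPM in WT and 4094 to 4180 CPM in Dlx2OE, with 0 of 10 called by edgeR's test or by DESeq2. Of the 10, 4 had an unadjusted p under 0.05, against 29.5% of all tested genes, and 1 (Twist1) passed the adjusted p without the fold threshold. Of the 2 mandibular factors, Hand1 had 0 counts in every Dlx2OE sample and in 2 of 3 WT samples. Hand2 was detected in all samples, at 9.02 to 16.3 CPM in WT and 7.35 to 19.8 CPM in Dlx2OE, and was not called. The 12 epithelial markers summed to 862 to 1539 CPM in WT, to 2049 CPM in Dlx2OE sample 1 and to 659 and 672 CPM in Dlx2OE samples 2 and 3. The high sum of Dlx2OE sample 1, in which 8 of the 10 Wnt genes were highest, came largely from the basal keratins Krt5 (538 CPM) and Krt14 (490 CPM). Without this pair the sum of Dlx2OE sample 1 was 1022 CPM, inside the WT range of 690 to 1193 CPM. It was still above Dlx2OE samples 2 and 3, which had 425 and 413 CPM without the pair. In Dlx2OE sample 1, 6 of the 12 markers lay above all WT samples, 3 within their range and 3 (Krt8, Krt18 and Cldn6) below it. In Dlx2OE samples 2 and 3 the epithelial sums lay below all WT samples, as did 11 and 10 of the 12 markers, while Krt5 lay above them (121 and 147 CPM against at most 91.7 CPM). In these samples Lef1 had 129 and 104 CPM against at most 14.6 CPM in WT, and the other 7 of these 8 genes also lay above all WT samples. The part of epithelial RNA in the 8 genes was not tested. Of the 12 epithelial markers, 2 fell and 0 rose by edgeR's quasi-likelihood F test (Benjamini-Hochberg), namely the simple epithelial keratins Krt8 (log2 fold change -2.11, adjusted p = 0.00939) and Krt18 (-1.84, adjusted p = 0.0233). DESeq2 called the same pair. An unadjusted p under 0.05 was reached by 5 of the 12, among them Krt5 in the opposite direction (log2 fold change 1.91, adjusted p = 0.0792 in the same edgeR test), with no overlap between the genotypes.

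The 10 neuronal markers summed to 84.3 to 353 CPM in WT and to 201, 715 and 1619 CPM in Dlx2OE samples 1 to 3, and 0 of 10 were called by edgeR (5 at an unadjusted p under 0.05, against 29.5% of all tested genes) and 1, Pou4f1, by DESeq2. Dlx2OE sample 1, the highest for 8 of the 10 Wnt genes, thus had the lowest neuronal sum of the Dlx2OE samples, within the WT range. Of the 12 neural progenitor markers, 11 were tested, Sox2 fell (log2 fold change -1.67, adjusted p = 0.00844, the same edgeR test) and Emx2 rose (1.60, adjusted p = 0.0218). DESeq2 called both in the same directions and also Otx2 lower, for which edgeR gave a log2 fold change of -3.14 and an adjusted p of 0.0628 with overlapping samples. The progenitor list had sums of 206 to 302 CPM in WT and 199 to 263 CPM in Dlx2OE. The erythroid sum was lower in every Dlx2OE sample (1816 to 2339 CPM against 3043 to 4049 CPM), and 1 of 7 markers, Hba-a2, was called lower (-2.12, adjusted p = 0.00552). An unadjusted p under 0.05 was reached by 6 of the 7, against 29.5% of all tested genes. The adjusted p without the fold threshold was passed by 3, all lower. None of the markers of crest glia (88.7 to 188 CPM in Dlx2OE, 125 to 138 in WT, Foxd3 at 0 in all samples), endothelium (192 to 306 and 265 to 403) or muscle (62.7 to 177 and 150 to 293) was called by edgeR or DESeq2, and 0, 2 and 2 of them had an unadjusted p under 0.05. The endothelial marker Emcn passed the adjusted p without the fold threshold (log2 fold change -0.97, adjusted p = 0.0464, the same edgeR test). The 4 eye markers were too low to be tested, with at most 2.62 CPM in sum. What the erythroid, neuronal and progenitor differences contribute to the 10 genes was not tested.

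**Figure D4:**
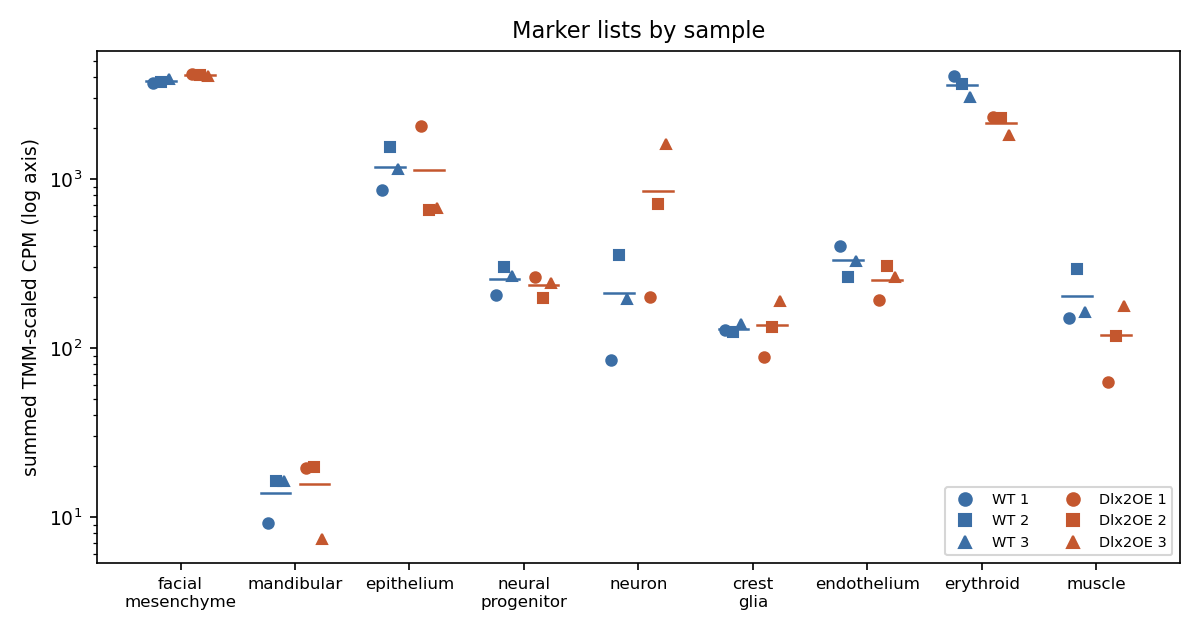
Summed TMM-scaled CPM (log axis) of 9 lists of cell type markers in each sample, with means as lines. The mesenchyme sums lie between 3721 and 3916 CPM in WT and between 4094 and 4180 CPM in Dlx2OE, with no overlap. The epithelial sum is highest in Dlx2OE sample 1 (2049 CPM) and the neuronal sum in Dlx2OE sample 3 (1619 CPM).

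The other genes of the pathway were taken from 4 lists arranged by role. In the cytoplasmic pathway (Ctnnb1, Gsk3a, Gsk3b, Apc, Axin1, the Dishevelled genes and others), 0 of 16 genes were called, and the median log2 fold change was 0.14. Ctnnb1, the gene of β-catenin itself, had 1351 ± 77.5 CPM across WT against 1354 ± 197 CPM across Dlx2OE (SD, n = 3 each). The smallest p belonged to Gsk3b, the kinase that marks β-catenin for destruction, with a log2 fold change of 0.52 and an adjusted p of 0.0570 by edgeR's quasi-likelihood F test (Benjamini-Hochberg). An unadjusted p under 0.05 was reached by 6 of the 16, against 29.5% of all tested genes, and DESeq2 called 1 of them higher, Apc2.

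Among the nuclear partners, 0 of 17 genes met the fold threshold (median log2 fold change 0.12). The corepressor Tle3 (log2 fold change 0.58, standard error 0.112, adjusted p = 0.0298) and the coactivator Crebbp (0.64, standard error 0.133, adjusted p = 0.0348) passed the adjusted p of the same edgeR test. The β-catenin coactivators Bcl9 and Pygo1 did not, with adjusted p of 0.114 and 0.148. Of the 17 genes, 8 had an unadjusted p under 0.05, against 29.5% of all tested genes, and DESeq2 called 0.

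Of 24 further target genes, 22 were tested, 3 rose and 0 fell past the fold threshold (median log2 fold change 0.15). The 3 were Dkk1, a secreted inhibitor of the Lrp5 and Lrp6 coreceptors, the receptor gene Tnfrsf19 and the homeobox gene Msx2. Dkk1 gave 207, 234 and 165 reads across the WT samples, against 1503, 858 and 624 across Dlx2OE, or 2.32 ± 0.313 (standard error) as log2 fold change with an adjusted p of 0.0116 by edgeR's quasi-likelihood F test (Benjamini-Hochberg). Tnfrsf19 had a log2 fold change of 1.88 (adjusted p = 0.0116) and Msx2 of 1.68 (adjusted p = 0.0211). As in 8 of the 10 genes above, Dlx2OE sample 1 was the highest for each of the 3. Not every gene known as a Wnt target was higher. The matricellular gene Ccn4 had a log2 fold change of -0.96 (adjusted p = 0.0116), just short of the fold threshold, with 52.9 ± 4.18 CPM across WT against 27.1 ± 3.57 CPM across Dlx2OE (SD, n = 3 each). The receptor-degrading ligase gene Znrf3, a feedback gene like those above, had 0.91 (adjusted p = 0.0450), whereas its paralog Rnf43 had -0.27 (adjusted p = 0.682), Ccnd1 -0.16 (adjusted p = 0.514) and Myc -0.29 (adjusted p = 0.309). Dkk4 (2.95, adjusted p = 0.109), Wif1 (1.93, adjusted p = 0.0876) and Lgr6 (1.75, adjusted p = 0.0744) were higher with no overlap between the genotypes but were not called. Dlx2OE sample 1 was the highest for each of them. Dkk4 gave only 42, 4 and 2 reads across the WT samples, against 289, 80 and 42 across Dlx2OE. Its WT sample 1 and Dlx2OE sample 3 thus had the same count and were set apart by library scaling alone (1.435 and 1.551 CPM). No overlap with Dlx2OE higher was seen in 16.7% of all tested genes. Of the 22 genes, 9 had an unadjusted p under 0.05, against 29.5% of all tested genes.

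Of 31 ligands, Frizzled receptors and Lrp coreceptors, 28 were tested, 8 rose and 0 fell past the fold threshold (median log2 fold change 0.17). The 4 with the smallest p were Wnt9b (log2 fold change 4.02, adjusted p = 0.00939), Wnt3 (3.79, adjusted p = 0.0104), Wnt5a (1.58, adjusted p = 0.0125) and the receptor Fzd10 (2.26, adjusted p = 0.0138), all from the same edgeR test. The other 4 were Wnt3a, Wnt7a, Wnt7b and Wnt10b. DESeq2 called 11 of the list higher, these 8 with Wnt2b, Wnt6 and Wnt10a, and 0 lower. Of all tested genes, edgeR called 1.49% higher. An unadjusted p under 0.05 was reached by 13 of the 28, against 29.5% of all tested genes. The adjusted p alone was passed by 9 as higher and by 1, Fzd8, as lower (log2 fold change -0.69, adjusted p = 0.0380, the same edgeR test). Wnt9b and Wnt3 are ligands known from facial epithelium. Wnt9b gave 49, 63 and 132 reads across the WT samples, against 2181, 1023 and 738 across Dlx2OE. Wnt3 gave 27, 48 and 69 reads across the WT samples, against 1137, 477 and 392 across Dlx2OE, and neither gene overlapped between the genotypes. Wnt1, whose regulatory sequence drives the Cre, was looked at after its values were seen. It gave 2, 0 and 0 reads across the WT samples, against 3, 1 and 3 across Dlx2OE, at or under the floor of 3 counts in each library. Without WT sample 2, edgeR called 0 genes of these 4 lists, and 2 without WT sample 1, against 11 with all samples. The number of genes called among all genes changed likewise, from 261 higher to 39 and 72.

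**Figure D5:**
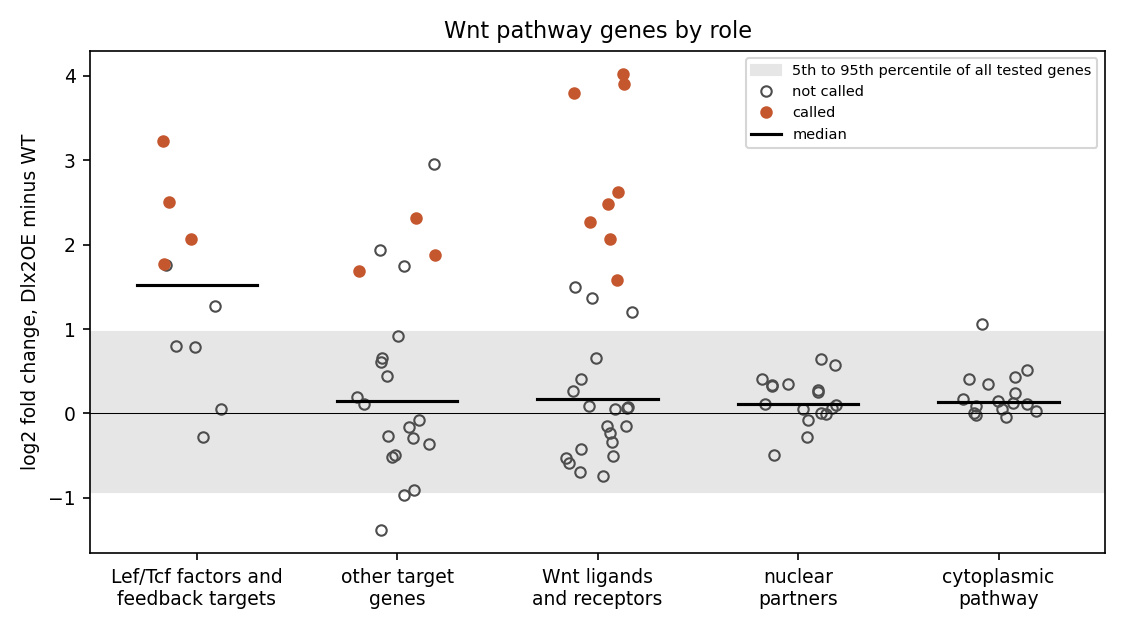
Log2 fold change (Dlx2OE minus WT) of the tested Wnt genes by role, filled where called, with the median of each list as a line and the 5th to 95th percentile of all tested genes shaded. Called genes lie among the 10 genes described, the other targets and the ligands and receptors, and none among the nuclear partners and the cytoplasmic pathway.

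Lastly, the genes whose log2 CPM followed 3 of the 10 genes most closely over the 6 samples were listed, out of 13224 genes with a mean log2 CPM of at least 1. The measure was Pearson's r. All 6 points of a pair come from the same libraries and fall into 2 genotypes, so r is given only as a measure of likeness. Lef1 was most like Far2 (r = 0.999), Uba1 (0.998) and the Notch target Hey2 (0.997). These genes had different steps between the genotypes, with log2 fold changes of 1.18, 0.24 and 3.27. Axin2 was most like Tmem132c (0.998), Wnt3 (0.998) and Apcdd1 (0.997). Apcdd1 was most like Wnt3 (0.999), Tmem132c (0.998) and Nkd1 (0.998), so that Wnt3 and Tmem132c stood near the top for both, with log2 fold changes of 3.79 and 2.33.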

How the data were processed

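RNA of 3 WT and 3 Dlx2OE samples was measured by RNA-seq of poly-A RNA with an NEBNext kit. The authors mapped reads to mm10 with STAR 2.7.3a (FastQC and HTSeq 0.12.4 are the other tools in the submitters' processing notes), counted them per gene in the union mode of htseq-count, which assigns a read overlapping several genes to none, and deposited the raw counts without normalization. The annotation release and strand setting are not given in the sources used here. Summary lines for unassigned reads were kept out of library sizes and tests (reads on no gene were 5.03 to 14.7% of a library).

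Symbols, positions and lengths were taken from GENCODE M21 (GRCm38), which held 53706 of the 53801 identifiers. The genotypes were compared with no covariate by the quasi-likelihood F test of edgeR 4.0.16 (R 4.3.3), after filterByExpr (minimum count 10) and TMM scaling, with Benjamini-Hochberg adjustment over 17514 genes. Log2 fold changes used a prior count of 2. The standard error is the fitted change divided by the square root of F. RPKM is CPM per kilobase of merged exons. A floor of 3 counts corresponds to 0.0955 to 0.111 CPM and covers counting error alone, because copies made by PCR are not independent reads. The thresholds for a call (adjusted p under 0.05, log2 fold change beyond 1) are those of the study's methods, which used DESeq2. DESeq2 1.42.0 was an alternative, as were RLE scaling, library size alone, other filters on low counts, mitochondrially encoded and haemoglobin genes left out, a replicate block, calls at any fold change, a prior count of 0.125, other gene lengths and each sample left out in turn. The scripts were tested on simulated data with 200 changed genes.

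The 10 genes and all lists were chosen with earlier results of these data known. Named beside them are Dlx2, the called genes of each list (the 4 with the smallest p where there were more, the single smallest where there was none), genes overlapping the exons of the 10, and the 3 genes most correlated with each of Lef1, Axin2 and Apcdd1. Ctnnb1, Bcl9, Pygo1, Ccn4, Znrf3, Rnf43, Ccnd1, Myc, Twist1, Hand1, Krt5, Krt14, Cldn6, Otx2, Foxd3, Apc2, Pou4f1, Wnt1, Wnt2b, Wnt3a, Wnt6, Wnt10a, Wnt7a, Wnt7b and Wnt10b, and the levels of single samples given beside them, were named after their values were seen. So were Fzd8, Dkk4, Wif1, Lgr6 and Emcn. Upstream windows came from RefSeq (GRCm38.p6). Figures were drawn with matplotlib 3.10.9.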

Additional observations from a re-analysis of the deposited data

How the results depend on the processing

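Of 140 fits of the 10 genes under alternatives, 126 kept direction and side of the adjusted p threshold, 2 lost the call, 8 gained an adjusted p under 0.05 and 4 changed sign. Lef1 and Axin2 had an adjusted p under 0.05 in each of their 14. The 2 losses were Nkd1 (2.05) and Apcdd1 (2.49) without WT replicate 2. The gains were Tcf7, Nkd2, Notum and Sp5 with DESeq2, Tcf7, Nkd2 and Sp5 without a filter on low counts, and Nkd2 with 10 counts in every sample. Tcf7l1 changed sign without WT replicate 1 (log2 fold change -0.070), WT replicate 2 (-0.015), Dlx2OE replicate 1 (-0.028) and Dlx2OE replicate 3 (-0.024), and had 0.25 without WT replicate 3, so no direction is given for it. With each sample left out in turn, 2 to 4 of the 10 genes were called higher, 0 to 12 of the other Wnt genes higher and 0 to 1 lower, and 0 to 9 markers higher and 3 to 12 lower. Over all genes the counts ranged from 39 to 639 higher and from 35 to 527 lower, and the Lef1 share from 5.01 to 5.82% in WT and 31.0 to 36.2% in Dlx2OE. The counts were lowest without WT replicate 2 and highest without Dlx2OE replicate 1, where 639 genes were called higher. The causes were not tested. DESeq2 called 447 genes higher and 440 lower (247 of those higher were also called so by edgeR) and 2 markers higher. Without a filter, 506 genes were called higher and 488 lower, 17 other Wnt genes higher, and 7 markers higher and 7 lower. At any fold change, 524 genes passed as higher and 606 as lower, 2 other Wnt genes as lower, and 2 markers as higher and 7 as lower. The length of the longest transcript gave a Lef1 share of 8.18% in WT and 44.7% in Dlx2OE, through the lengths alone.

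Across genes, the deviations of same-numbered samples from their genotype means had r from -0.211 to 0.0731. Pairs with different numbers had r from -0.204 to 0.345. Deviations from a mean of 3 samples are tied to one another, so these values cannot decide whether samples share a litter or batch. With the replicate block, 202 genes were called higher and 196 lower (182 of those higher were also called so without it), 4 of the 10 genes and 10 other Wnt genes higher, and 3 markers higher. With library size alone the median log2 fold change of all genes was 0.07 and no gene among the 10 changed its call.

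With 3 samples a group, a difference in a single low gene such as Notum, with 32 to 43 counts in WT, is limited both by counting error and by the spread of Dlx2OE samples.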
